A study of Mus musculus with 39 samples.

Results

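Dissected interscapular brown fat carried transcripts of skeletal muscle fibres, and their summed level differed up to 22.5-fold between libraries of 1 group. The genes described here are 41 contractile, Z-disc, calcium-handling and energy-supply genes of skeletal muscle, chosen by symbol for what they encode in muscle, out of 24116 genes in the authors' table of normalized counts. All 41 were found in the table, and all 41 reached a mean of at least 10 normalized counts over the 16 libraries, the level required for testing. They comprise 14 genes typical of fast fibres, 9 typical of slow fibres and 18 used by fibres of both kinds. The mean of 8 of the 41, namely Myh7, Myl2, Tnni1, Tnnt1, Myoz2, Cacna1s, Smpx and Cox6a2, lay under 10 in control fat at 22 °C and above it in the other 3 groups, so these passed the filter through the groups in which they were high.

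The study measured polyadenylated RNA in male mice of the BCL6-floxed C57BL/6J strain, kept on standard chow, in 4 groups of 4 libraries. Cre-positive mice at 30 °C and control mice without Cre at 30 °C were set beside Cre-positive mice at 22 °C and control mice at 22 °C. All groups carry the floxed Bcl6 alleles. The Cre-positive groups carry UCP1Cre in addition, in which the Ucp1 promoter, active in brown adipocytes, drives the recombinase. The labels give no ages and do not say whether each library came from a different animal, so the p-values measure the spread between these samples, which may be technical.

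Skeletal muscle fibres are large multinucleated cells whose sarcomeres slide myosin thick filaments along actin thin filaments when calcium leaves the sarcoplasmic reticulum. Fast and slow fibres use different genes for the same part, so that a fast and a slow isoform exist for myosin heavy chain, for each troponin subunit and for several regulators. Brown adipocytes share a developmental origin with muscle and use a few of its genes, but they build no sarcomeres, and the interscapular depot lies against muscles of the back and neck. In a bulk library, fewer cells of a type and less RNA per cell cannot be told apart.

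Summed normalized counts ran between 8867615 and 13516936 per library, with 14311 to 16849 genes above 0. Control 22 °C replicate 1 and Cre-labelled 22 °C replicate 2 had the fewest genes above 0, at 14311 and 15226. Bcl6, the gene the Cre is meant to delete, was higher, not lower, under the Cre label at both temperatures. It averaged 4466 ± 853 normalized counts in Cre-labelled and 1847 ± 608 in control fat at 30 °C (SD, n = 4 each). At 22 °C it averaged 3305.5 ± 514.5 in Cre-labelled and 1079 ± 510 in control fat (SD, n = 4 each). A value for the whole gene does not show whether the floxed part was lost, so the labels could not be checked with it. The libraries are therefore called Cre-labelled below, and each direction between them rests on the label. Ucp1, which defines brown adipocytes, lay between 3761 and 119740 in the 16 libraries, and the sum of the 25 brown adipocyte genes found in the table between 173453 and 493055.

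The proximal promoters of 4 of the genes are shown because their sequences carry the elements known from muscle promoters, and because 3 of the genes (Myh4, Myh1 and Acta1) moved together between libraries while the fourth (Casq2) did not. Each is the 250 bases before the RefSeq gene start on GRCm38.p6, written 5′ to 3′ on the gene's strand. Capitals mark the MEF2 site, the CArG box bound by serum response factor, and TATAAA on the gene's own strand. Myh4 (chr11:67237562-67237811, plus strand) and Myh1 (chr11:67199852-67200101, plus strand) lie in the skeletal myosin cluster on chromosome 11, Acta1 (chr8:123894776-123895025, minus strand) on chromosome 8 and Casq2 (chr3:102086165-102086414, plus strand) on chromosome 3.
Myh4: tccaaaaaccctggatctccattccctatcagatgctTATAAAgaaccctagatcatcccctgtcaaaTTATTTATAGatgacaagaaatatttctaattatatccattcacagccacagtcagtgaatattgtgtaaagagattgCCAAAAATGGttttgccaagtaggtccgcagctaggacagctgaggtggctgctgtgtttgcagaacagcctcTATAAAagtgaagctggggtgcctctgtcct
Myh1: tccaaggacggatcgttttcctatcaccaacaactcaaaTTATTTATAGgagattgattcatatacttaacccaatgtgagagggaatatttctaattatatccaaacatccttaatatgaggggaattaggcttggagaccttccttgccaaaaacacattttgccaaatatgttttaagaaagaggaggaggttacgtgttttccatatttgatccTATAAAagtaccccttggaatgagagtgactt
Acta1: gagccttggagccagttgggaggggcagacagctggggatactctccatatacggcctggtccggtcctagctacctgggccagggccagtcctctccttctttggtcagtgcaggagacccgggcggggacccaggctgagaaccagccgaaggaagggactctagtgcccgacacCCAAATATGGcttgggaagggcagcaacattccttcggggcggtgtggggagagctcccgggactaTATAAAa
Casq2: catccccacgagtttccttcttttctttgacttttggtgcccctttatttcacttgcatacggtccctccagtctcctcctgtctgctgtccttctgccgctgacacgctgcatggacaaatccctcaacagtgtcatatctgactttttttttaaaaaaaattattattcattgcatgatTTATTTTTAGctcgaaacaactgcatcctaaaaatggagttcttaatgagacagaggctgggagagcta
Promoter sequences were at hand for 31 of the 41 genes. On either strand of these 250 bases, a MEF2 site was found in 7 of 31 (22.6%), against 3.01% of 27025 mouse promoters of the same length, and a CArG box in 4 of 31 (12.9%), against 1.40%. CATTCC, the MCAT element, was found in 9 (29.0%), against 12.6%, the E-box CANNTG in 25 (80.6%), against 66.0%, and TATAAA in 5 (16.1%), against 13.0%. TTCCNNGAA, a BCL6-type motif, was in 0 of 31, against 4.17%. In Myh4 and Myh1 the TATAAA of the opposite strand overlaps the MEF2 site. A match is a description of the letters and not evidence of binding.

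The summed level of the 41 genes spanned 1922 to 51179 normalized counts. As a share of a library's total it lay between 0.0217% in Cre-labelled 30 °C replicate 1 and 0.459% in Cre-labelled 30 °C replicate 2. It was 1922, 43272, 36774 and 7285 in the Cre-labelled 30 °C libraries, against 27502, 16322, 16715 and 16695 in control libraries at 30 °C. It was 51179, 3051, 3709 and 25665 in the Cre-labelled 22 °C libraries, against 3723, 3416, 8715 and 4281 in control libraries at 22 °C. Both Cre-labelled groups held libraries at each extreme, with the highest 22.5 times the lowest at 30 °C and 16.8 times the lowest at 22 °C, while the control groups spanned 1.68 and 2.55 times. Low sums came mostly from genes that kept a floor. In control 22 °C replicate 1, Myl1 was at 1510 and Des at 1373 of the 3723. In Cre-labelled 30 °C replicate 1, Myl1 was at 713 and Tpm2 at 535 of the 1922. The sum therefore spans less than genes without a floor, such as Myh4, at 13.6 to 1162 in controls at 22 °C. The 2 control groups did not overlap, and every control library at 30 °C lay above every control library at 22 °C.

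**Figure D1:**
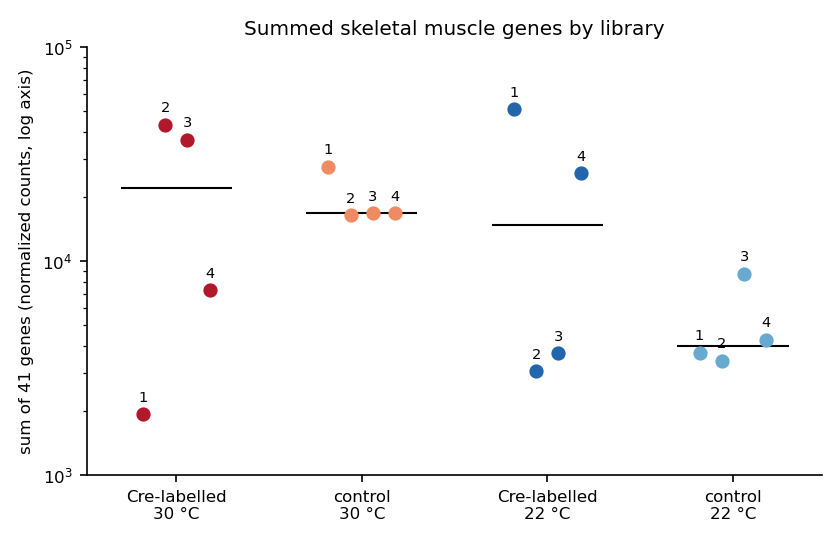
Sum of the 41 skeletal muscle genes in each library (points, numbered by replicate; normalized counts on a log axis) by group, with the group median as a line. The Cre-labelled groups span 1922 to 43272 at 30 °C and 3051 to 51179 at 22 °C, and the control groups lie apart from each other, at 16322 to 27502 at 30 °C and 3416 to 8715 at 22 °C.

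A muscle score, the mean over the 41 genes of each gene's log2(value + 1) minus its own mean over the 16 libraries, condenses the same pattern without letting the most abundant genes dominate. The score was -3.75, 2.47, 2.37 and -0.36 in Cre-labelled libraries at 30 °C, against 2.15, 1.40, 1.33 and 1.30 in controls at 30 °C. It was 2.87, -3.03, -1.40 and 1.73 in Cre-labelled libraries at 22 °C, against -3.00, -2.85, 0.06 and -1.30 in controls at 22 °C. Its standard deviation was 2.93 and 2.73 in the Cre-labelled groups at 30 °C and 22 °C, and 0.41 and 1.44 in the control groups. Cre-labelled 30 °C replicate 1 was the lowest of all libraries, with 10 of the 41 genes at 0 and 32 under 10. Cre-labelled 22 °C replicate 1 was the highest, and 29 of the 41 genes had their maximum there.

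**Figure D2:**
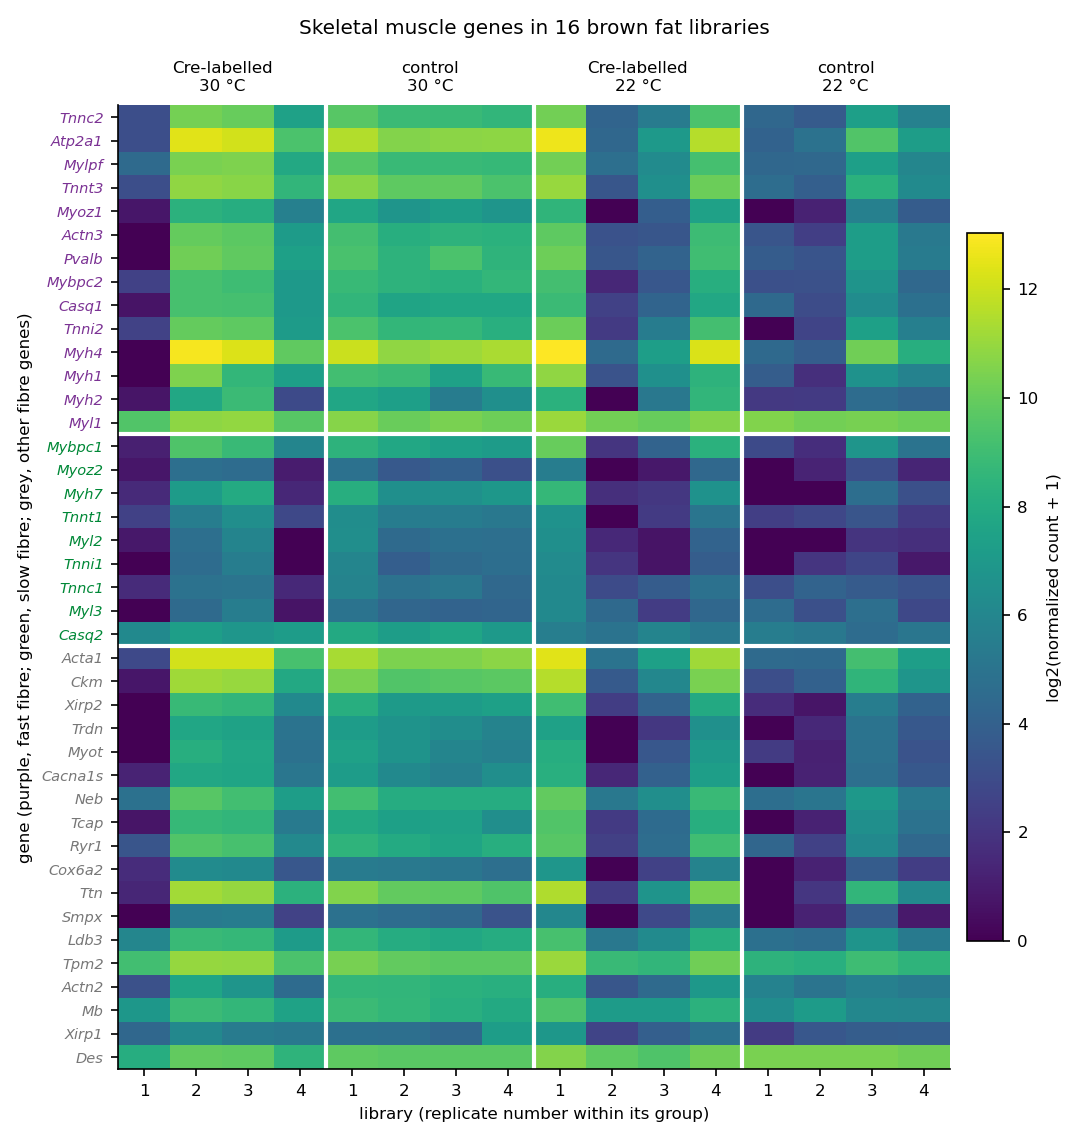
log2(normalized count + 1) of the 41 genes (rows, by fibre class and within a class by how closely each follows the other members) in the 16 libraries (columns, by group and replicate number). Most rows are darkest, that is lowest, in Cre-labelled 30 °C replicate 1, Cre-labelled 22 °C replicate 2 and control 22 °C replicates 1 and 2, while Myl1, Tpm2 and Des stay above 100 in every library.

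Among thick-filament genes, Myh4, the heavy chain of the fastest (IIb) fibres, had 0, 7277, 5227 and 928 normalized counts in Cre-labelled libraries at 30 °C, against 4039, 1873, 2235 and 2643 in controls at 30 °C. At 22 °C it had 8361, 21.6, 159 and 5059.7 in Cre-labelled libraries, against 20.9, 13.6, 1162 and 285 in controls. The values cover the range from 0 to 7277 within a single group. Mylpf, the phosphorylatable light chain of fast myosin, had 21.5, 1361, 1458 and 228 in Cre-labelled libraries at 30 °C, against 764, 454, 449 and 426 in controls, and 1229.6, 25.98, 76.1 and 589 in Cre-labelled libraries at 22 °C, against 19.4, 19.9, 162 and 62.1 in controls. Mybpc2, the fast form of myosin-binding protein C, had 4.83, 601, 513 and 128 in Cre-labelled libraries at 30 °C, against 436, 339.6, 306 and 396 in controls, and 558, 1.76, 10.6 and 289 in Cre-labelled libraries at 22 °C, against 8.02, 8.28, 105 and 19.9 in controls. In both genes, as in Myh4, the controls at 30 °C were all above the controls at 22 °C. Myh7, the slow heavy chain, had 1.98, 141, 246 and 1.71 in Cre-labelled libraries at 30 °C, against 283, 89.6, 91.8 and 118 in controls, and 413, 2.43, 3.26 and 98.1 in Cre-labelled libraries at 22 °C, against 0, 0, 25.4 and 8.18 in controls. Myl2, the slow regulatory light chain, had 0.765, 26.2, 58.3 and 0 in Cre-labelled libraries at 30 °C, against 85.5, 21.5, 26.96 and 26.03 in controls, and 90.02, 1.796, 0.609 and 17.03 in Cre-labelled libraries at 22 °C, against 0, 0, 2.83 and 2.41 in controls. Cre-labelled 30 °C replicate 4 was near 0 for both slow genes while its Myh4 was 928. Mybpc1, the slow-type myosin-binding protein C, had 1.19, 701, 450.1 and 59.7 in Cre-labelled libraries at 30 °C, against 347, 228, 165 and 139 in controls, and 1042, 2.98, 16.8 and 323 in Cre-labelled libraries at 22 °C, against 6.71, 2.29, 111 and 30.4 in controls. In that library it was at 59.7. Of the other thick-filament genes, Myh1 (IIx fibres) ranged between 0 and 1869, Myh2 (IIa fibres) between 0 and 470.2 and Myl3 (slow essential light chain) between 0 and 72.0. Myl1, the fast essential light chain, moved least of all 41, between 713 and 2122. Myh1, Myh2 and Myh4 are neighbours with near-identical stretches, so the assignment of reads among them is uncertain.

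Among thin-filament genes, Acta1, skeletal muscle actin, had 6.33, 4564, 4521 and 605 normalized counts in Cre-labelled libraries at 30 °C, against 2549, 1385, 1465 and 1722 in controls at 30 °C. At 22 °C it had 5572, 30.7, 169 and 2276 in Cre-labelled libraries, against 21.97, 20.9, 568 and 158 in controls. The highest library exceeded the lowest 881-fold. The fast troponin subunits behaved alike. Tnni2, the inhibitory subunit, had 5.03, 987, 878 and 141 in Cre-labelled libraries at 30 °C, against 652, 397, 410 and 295 in controls, and 1087, 3.599, 43.8 and 570.3 in Cre-labelled libraries at 22 °C, against 0, 5.402, 166 and 47.6 in controls. Tnnt3, the tropomyosin-binding subunit, had 7.83, 1834, 1662 and 375 in Cre-labelled libraries at 30 °C, against 1656, 889.6, 907 and 648 in controls, and 2068, 10.1, 88.6 and 1085 in Cre-labelled libraries at 22 °C, against 24.5, 14.2, 321 and 75.3 in controls. Tnnc2, the calcium-binding subunit, had 7.65, 1277, 1021 and 174 in Cre-labelled libraries at 30 °C, against 792, 464, 451 and 374 in controls, and 1223, 17.1, 41.7 and 652 in Cre-labelled libraries at 22 °C, against 19.8, 12.5, 164 and 52.2 in controls. In all 3, Cre-labelled 22 °C replicates 1 and 4 were far above replicates 2 and 3 of their group. Tnni1 had 0, 23.2, 44.8 and 0 in Cre-labelled libraries at 30 °C, against 59.4, 13.9, 21.4 and 25.2 in controls, and 76.4, 2.99, 0.626 and 13.4 in Cre-labelled libraries at 22 °C, against 0, 3.099, 5.64 and 0.765 in controls. Tnnt1 had 4.64, 44.4, 86.4 and 6.14 in Cre-labelled libraries at 30 °C, against 83.2, 43.05, 43.7 and 36.01 in controls, and 99.2, 0, 3.59 and 32.5 in Cre-labelled libraries at 22 °C, against 4.39, 5.94, 9.66 and 3.69 in controls. The slow subunit Tnnc1 ranged between 1.83 and 71.1 over the 16 libraries. Neb, the giant ruler protein nebulin, and Tpm2, beta-tropomyosin, kept a floor that the troponins lacked. Neb had 28.6, 793, 544 and 150.1 in Cre-labelled libraries at 30 °C, against 535, 272, 270.2 and 271 in controls, and 942, 36.1, 87.3 and 456 in Cre-labelled libraries at 22 °C, against 24.9, 32.3, 122 and 36.8 in controls. Tpm2 had 535, 2034, 1926 and 644 in Cre-labelled libraries at 30 °C, against 1320.2, 964, 851 and 851 in controls, and 2148, 458, 387 and 1168 in Cre-labelled libraries at 22 °C, against 339.5, 299, 496 and 349.6 in controls.

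Among Z-disc, titin and cytoskeletal genes, Ttn, the spring protein titin, had 1.61, 2411, 2008 and 332 normalized counts in Cre-labelled libraries at 30 °C, against 1492, 956, 883 and 702 in controls, and 2861, 4.06, 107 and 1352 in Cre-labelled libraries at 22 °C, against 0, 3.11, 376 and 70.3 in controls. Myoz1, a calcineurin-binding protein of the fast-fibre Z-disc, had 0.707, 328, 275 and 50.5 in Cre-labelled libraries at 30 °C, against 208, 112, 149.6 and 110 in controls, and 366, 0, 13.6 and 175 in Cre-labelled libraries at 22 °C, against 0, 1.36, 49.7 and 12.8 in controls. Both were close to 0 in the same 4 libraries. Ldb3, a PDZ-LIM protein of the Z-disc, had 61.9, 452, 409.9 and 140.4 in Cre-labelled libraries at 30 °C, against 392, 268, 221 and 265 in controls, and 594, 36.5, 73.3 and 288 in Cre-labelled libraries at 22 °C, against 26.7, 23.6, 105 and 40.2 in controls. Actn2, the alpha-actinin of all fibre types and of heart, had 8.55, 199.8, 112 and 22.7 in Cre-labelled libraries at 30 °C, against 388, 385, 315 and 302 in controls, and 289, 10.3, 21.4 and 122 in Cre-labelled libraries at 22 °C, against 53.7, 31.3, 50.9 and 39.4 in controls. Actn2 differed from the pattern of Ttn in that all controls at 30 °C exceeded the 2 Cre-labelled 30 °C libraries with the highest muscle score. Xirp2, an actin-binding repeat protein, had 0, 441, 383 and 72.97 in Cre-labelled libraries at 30 °C, against 285, 134, 139 and 171 in controls, and 519, 4.16, 16.8 and 244 in Cre-labelled libraries at 22 °C, against 2.097, 0.695, 45.7 and 16.1 in controls. Its relative Xirp1 had 19.1, 67.4, 41.6 and 36.3 in Cre-labelled libraries at 30 °C, against 27.2, 25.8, 20.3 and 149.8 in controls, and 118, 5.29, 14.4 and 28.4 in Cre-labelled libraries at 22 °C, against 3.87, 10.6, 13.6 and 13.99 in controls. Xirp1 was highest in control 30 °C replicate 4, the library with the lowest muscle score of its group. Des, the intermediate filament desmin, which smooth muscle and pericytes also make, had 277, 958, 895 and 355 in Cre-labelled libraries at 30 °C, against 901, 831, 828 and 838 in controls, and 1559, 902, 706 and 1188 in Cre-labelled libraries at 22 °C, against 1373, 1379, 1336 and 1187 in controls. Alone among the 41, Des was lower in every control library at 30 °C than in any control library at 22 °C. Actn3, the fast-fibre alpha-actinin, ranged between 0 and 971, Myoz2 (slow Z-disc) between 0 and 45.5, Myot (myotilin) between 0 and 287, Tcap (the titin cap) between 0 and 724 and Smpx between 0 and 64.8.

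Among calcium-handling genes, Atp2a1, the fast-fibre calcium pump SERCA1, had 7.82, 5482, 4450.3 and 652 normalized counts in Cre-labelled libraries at 30 °C, against 2964, 1567, 1725 and 1777 in controls, and 6711, 19.5, 127 and 3058 in Cre-labelled libraries at 22 °C, against 15.9, 29.6, 711 and 149 in controls. Ryr1, the calcium release channel, had 9.82, 717, 611 and 68.4 in Cre-labelled libraries at 30 °C, against 353, 253, 192 and 283 in controls, and 796, 4.53, 23.8 and 519 in Cre-labelled libraries at 22 °C, against 18.9, 4.72, 72.9 and 19.9 in controls. Cacna1s, the voltage sensor that opens it, had 1.45, 223, 200 and 33.7 in Cre-labelled libraries at 30 °C, against 144, 72.6, 50.9 and 86 in controls, and 299, 1.75, 15.5 and 156 in Cre-labelled libraries at 22 °C, against 0, 1.34, 26 and 11.04 in controls. All 3 were highest in Cre-labelled 22 °C replicate 1, and controls at 30 °C lay above controls at 22 °C. Casq2, the calcium store protein of slow fibres and heart, went another way: it had 70.7, 159, 113 and 147 in Cre-labelled libraries at 30 °C, against 243, 154, 204 and 133 in controls, and 46.3, 30.1, 56.9 and 36.3 in Cre-labelled libraries at 22 °C, against 45.1, 36.03, 23.6 and 33.8 in controls. Every library at 30 °C was above every library at 22 °C for Casq2, including Cre-labelled 30 °C replicate 1, where the score was lowest. Its fast counterpart Casq1 ranged between 0.611 and 599, the calcium buffer Pvalb between 0 and 1185 and the junctional protein Trdn between 0 and 206. Among energy-supply genes, Ckm, muscle creatine kinase, had 0.698, 2319, 2075 and 234 in Cre-labelled libraries at 30 °C, against 1372, 719.9, 799 and 852 in controls, and 3105, 11.9, 64.8 and 1345 in Cre-labelled libraries at 22 °C, against 7.78, 15.3, 362 and 109.9 in controls. Ckm had the widest spread of the 20 genes above 0 in every library, 4449-fold. Cox6a2, the muscle and heart isoform of a cytochrome oxidase subunit, had 2.18, 76.4, 71.01 and 10.6 in Cre-labelled libraries at 30 °C, against 42.6, 36.99, 33.1 and 25.9 in controls, and 112, 0, 4.68 and 55.5 in Cre-labelled libraries at 22 °C, against 0, 1.34, 12.8 and 4.17 in controls. Mb, the oxygen-binding protein myoglobin, had 118, 476, 401 and 182 in Cre-labelled libraries at 30 °C, against 464, 398, 294 and 240.4 in controls, and 673, 139, 139 and 329.6 in Cre-labelled libraries at 22 °C, against 79.6, 143, 64.5 and 63.2 in controls. Mb kept a floor of 63.2, which Cox6a2 lacked.

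The genes varied together. Over the 16 libraries, the correlation of log2 values between 2 members had a median of 0.89 over the 820 pairs, and 0.89 again for deviations from the group means, from which differences between groups are removed. Each gene was also set against the mean of the other 40. For 30 of the 41 this Pearson correlation was above 0.9, led by Tnnc2 (0.994), Atp2a1 (0.993) and Acta1 (0.990). The lowest were Des (0.25), Casq2 (0.51), Myl3 (0.59) and Myl1 (0.62). For Des the correlation of deviations from the group means was 0.81, and for Casq2 it was 0.29. These values describe 16 libraries that each measured all 41 genes at once, under the same normalization, and they carry no test.

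How far a gene fell in the libraries poor in muscle transcripts divided the 41. A value of 0 in at least 1 library was seen for 21, among them Myh4, Ttn, Tnni2 and Cacna1s. At the other end, 7 genes were never under 20 normalized counts (Myl1, Casq2, Neb, Tpm2, Mb, Ldb3 and Des), and 3 of these never under 100 (Myl1, Tpm2 and Des). The slope of a gene on the score, within groups and in log2 per log2, says the same: it was 1.78 ± 0.12 (SE) for Myh4, 1.53 ± 0.06 for Ckm and 1.39 ± 0.05 for Acta1, but 0.17 ± 0.04 for Myl1, 0.20 ± 0.04 for Des, 0.28 ± 0.06 for Mb and 0.06 ± 0.05 for Casq2. Slopes above 0.5 were found for 34 of the 41. Since the members make up the score, their slopes are descriptions.

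Fast and slow fibre genes were high and low in the same libraries. In the mean log2 deviations of the classes, Cre-labelled 30 °C replicate 4 lay farthest toward the fast genes, at 0.26 for fast and -1.88 for slow genes. Cre-labelled 30 °C replicate 1 lay farthest the other way, at -5.01 for fast and -2.55 for slow genes. Several slow genes had low means, such as Myl2 with 22.5 over the 16 libraries, against 2457 for Myh4. On log2(value + 1) such genes can fall less far, so this position does not by itself mark another fibre type. The median correlation was 0.95 among fast genes (91 pairs), 0.82 among slow genes (36 pairs) and 0.83 between the classes (126 pairs). For 7 pairs of fast and slow counterparts, the log2 ratio of fast over slow was taken in each library from value + 1. Where both partners are near 0 the ratio is drawn to 0, so a low ratio does not by itself mark another fibre type. Read counts are not adjusted for transcript length, so a ratio is compared between libraries only. The median of the 7 ratios was 0.65, 5.34, 4.25 and 5.72 in Cre-labelled libraries at 30 °C, against 3.43, 3.97, 3.66 and 3.63 in controls at 30 °C. It was 3.81, 0.21, 3.06 and 4.47 in Cre-labelled libraries at 22 °C, against 0.23, 0.64, 3.61 and 2.44 in controls at 22 °C. The 4 libraries under 1 are those with the lowest muscle score. In them many partners, such as Tnni2 and Tnni1 or Myoz1 and Myoz2, were near 0, while Casq2 was between 30.1 and 70.7. Their log2 ratios of summed fast over summed slow genes were 3.23 in Cre-labelled 30 °C replicate 1 and 4.30 in Cre-labelled 22 °C replicate 2. In control 22 °C replicates 1 and 2 these were 4.26 and 4.22. Myl1 and Casq2, which kept a floor, enter these sums.

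Cre-labelled 30 °C replicate 4 had the highest ratio of all for 5 of the 7 pairs. Its Myh4/Myh7 ratio was 8.42, against 3.83 to 4.59 in controls at 30 °C, and its Tnni2/Tnni1 ratio was 7.15, against 3.43 to 4.73 in those controls. In that library Myh7 was at 1.71, Tnni1 and Myl2 were at 0 and Myh2 was at 6.67, while Myh4 was at 928 and Actn3 at 142. Control 22 °C replicate 3 had a similar score, 0.06 against -0.36, but a Myh4/Myh7 ratio of 5.46. Casq1/Casq2 ran from -5.47 to 3.31 in the 16 libraries and Mybpc2/Mybpc1 from -0.90 to 1.50. The ratio of Mybpc2 to Mybpc1 covered the narrowest range of the 7. In the log2 ratio of summed fast over summed slow genes Cre-labelled 30 °C replicate 4 was not apart, at 4.23, against 3.23 to 4.67 over all 16. Its slow sum rested largely on Casq2, at 147, whose slope on the score was 0.06 ± 0.05. The differences between single libraries have no replicate check.

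**Figure D3:**
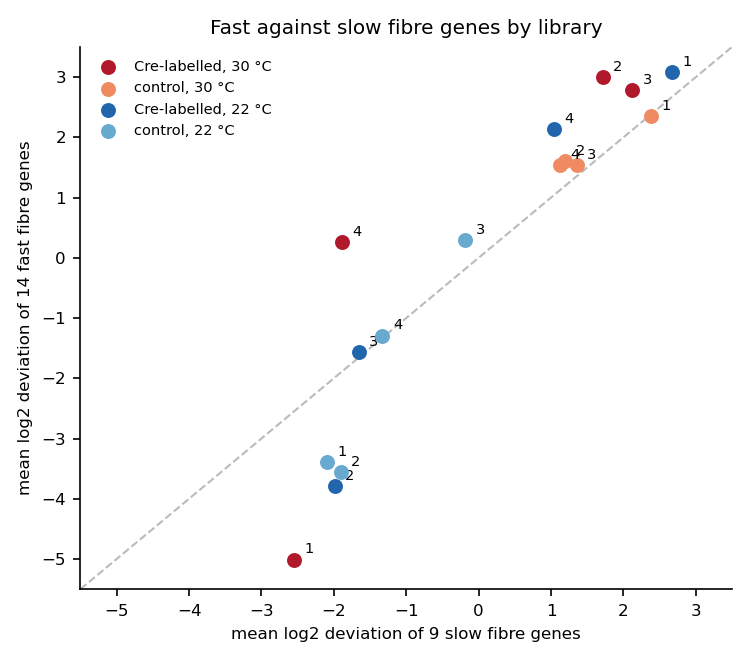
Mean log2 deviation of the 14 fast fibre genes (vertical) against that of the 9 slow fibre genes (horizontal) for each library (points, coloured by group and numbered by replicate), with the line of equal deviation. Cre-labelled 30 °C replicate 4 lies farthest above the line, at 0.26 for fast genes and -1.88 for slow genes, and the 4 libraries with the lowest muscle score lie below it. Slow genes with low means can fall less far on this scale.

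Between Cre-labelled and control fat at 30 °C, 40 of the 41 muscle genes had a lower mean log2 level in Cre-labelled fat, but hardly any difference exceeded the spread between libraries. On normalized counts without the log the direction was the other way for many: 26 of 41 had a higher mean in Cre-labelled fat, Myh4 at 3358 ± 3466 in Cre-labelled and 2697 ± 948 in control fat (SD, n = 4 each), and the median sum of the 41 was 22029 in Cre-labelled and 16705 in control fat. By limma on log2(value + 1), with Benjamini-Hochberg adjustment over all 13176 genes tested at a threshold of 0.05, 0 of 41 were higher and 1 was lower, against 5.65% higher and 6.85% lower among all genes. The groups did not overlap for 0 of 41 in the higher direction, against 10.5% of all genes, and for 1 of 41 in the lower direction, against 12.4%. The gene was Actn2, which fell by 2.86 ± 0.90 (SE, log2) in Cre-labelled fat, with a limma adjusted p of 0.0452. The median log2 difference of the 41 was -1.41, against 0.01 for all genes, and the median SE of a member was 1.47. Without Cre-labelled 30 °C replicate 1 the median turned to 0.24 and Actn2 was no longer called. The Actn2 call was also lost without Cre-labelled replicate 4, without any of the controls at 30 °C and without control 22 °C replicate 2, 3 or 4.

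Between Cre-labelled and control fat at 22 °C the means leaned the other way, with 40 of 41 genes having a higher mean log2 level in Cre-labelled fat. By limma 1 of 41 was higher and 0 were lower, against 5.51% higher and 4.69% lower among all genes. The groups overlapped for all 41, against 6.38% of genes not overlapping in the higher and 6.06% in the lower direction. The gene called was Mb, 3.08-fold higher in Cre-labelled fat (log2 difference 1.62 ± 0.49 SE, limma adjusted p 0.0428), although Cre-labelled replicates 2 and 3, at 139.1 and 139.2, lay within the control range of 63.2 to 143. The median log2 difference of the 41 was 1.97, against -0.004 for all genes, and lay between 1.01 without Cre-labelled 22 °C replicate 1 and 3.03 without Cre-labelled 22 °C replicate 2. Leaving out Cre-labelled 22 °C replicate 1 or 4, any control at 30 °C or control 22 °C replicate 1, 3 or 4 ended the Mb call, and leaving out Cre-labelled 22 °C replicate 2 gave 3 called genes. The difference between the Cre effects at the 2 temperatures was negative for all 41, with a median of -3.18, against -0.009 for all genes. The median SE of that difference over the 41 was 2.08. By limma 0 of 41 were called, against 0.440% of all genes. The 41 vary together, so a shared sign is not 41 separate observations, in this contrast or the others.

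In control fat the muscle genes were higher at 30 °C than at 22 °C for 39 of the 41 by mean log2 level, and more of them were called than in the other comparisons. By limma 22 of 41 were higher at 30 °C and 0 were lower, against 22.9% higher and 22.7% lower among all genes. The groups did not overlap for 36 of 41 in the higher direction, against 19.9% of all genes, and for 1 of 41 (Des) in the lower direction, against 21.3%. The median log2 difference of the 41 was 3.59, against 0.04 for all genes. The 22 comprised 6 of 14 fast, 5 of 9 slow and 11 of 18 other fibre genes. They include 6 genes with a mean under 10 in controls at 22 °C (Myh7, Myl2, Tnni1, Tnnt1, Cacna1s and Cox6a2), which entered the test through groups where they were high. Among the 33 genes with a mean of at least 10 in every group 16 were called, 6 of 14 fast, 1 of 4 slow and 9 of 15 other. The 1 slow gene was Casq2, whose slope on the score was 0.06 ± 0.05. By role the 22, with the 6 low genes included, were 4 of 10 thick-filament, 7 of 9 thin-filament, 6 of 12 Z-disc and cytoskeletal, 3 of 7 calcium-handling and 2 of 3 energy-supply genes. Lists of other cell types also moved in this contrast: 15 of 16 macrophage genes were higher at 30 °C (median log2 difference 1.38), 9 of 14 fibroblast and progenitor genes were higher (0.78) and 15 of 24 brown adipocyte genes were lower (-0.75), and their part in the muscle difference was not tested. The summed macrophage genes lay between 4019 and 5151 at 30 °C and between 1409 and 2450 at 22 °C.

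Among the muscle genes called in control fat, Ttn had the largest log2 difference, 5.73 ± 2.18 (limma adjusted p 0.0411). Tnni2 stood at 4.80 ± 1.79 (limma adjusted p 0.0372). Myh7, at 5.04 ± 1.65, lay between them. It is 1 of the 6 low genes above, with a mean of 8.39 in controls at 22 °C, so its difference is a description. The genes with a floor had smaller differences and smaller errors: Mb was 4.05-fold higher (log2 2.02 ± 0.49, limma adjusted p 0.00316) and Tpm2 2.69-fold higher (1.43 ± 0.48, limma adjusted p 0.0243). Casq2 stood at 2.37 ± 0.28 with a limma adjusted p of 8.4e-06. Myh4, at 4.67 ± 2.35, and Acta1, at 4.395 ± 1.80, did not pass, with limma adjusted p of 0.113 and 0.0554, although their groups did not overlap. The number called was 5 without control 30 °C replicate 1, 6 without control 22 °C replicate 1 or 2, 9 without control 30 °C replicate 3 or 4, 10 without control 30 °C replicate 2, 13 without control 22 °C replicate 4 and 33 without Cre-labelled 30 °C replicate 1, which takes no part in the contrast but enters the shared error. It was 8 after quantile normalization and 39 (38 higher, 1 lower) when the 8 control libraries were fitted alone. Several of these counts are near or under the share of all genes called higher in the same setting: 19.5% of members against 18.1% of all genes after quantile normalization, 24.4% against 22.5% with no trend, 12.2% against 18.9% without control 30 °C replicate 1, and 14.6% against 21.2% and 22.0% without control 22 °C replicate 1 and 2. A share of members above that of all genes was therefore not stable. Casq2, Actn2, Mb and Ldb3, and Myl2 from the 6 low genes above, were called in this contrast under every alternative that tested them. Of these, Casq2 hardly followed the score and was also called higher at 30 °C in Cre-labelled fat.

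In Cre-labelled fat few of the genes were called in the contrast of temperatures: by limma 1 of 41 genes was higher at 30 °C and 1 lower, against 15.0% higher and 17.7% lower among all genes. The groups did not overlap for 1 higher and 0 lower, against 16.2% and 18.3%. The median log2 difference was 0.20, against 0.02 for all genes, and ranged between -0.91 without Cre-labelled 22 °C replicate 2 and 1.60 without Cre-labelled 30 °C replicate 1. The gene called higher was Casq2, 2.79-fold (log2 1.48 ± 0.28, limma adjusted p 0.000711), under every alternative. The gene called lower was Des, with a log2 difference of -0.95 ± 0.32 (limma adjusted p 0.0303), a call lost without Cre-labelled replicate 1 or 4 at either temperature and after quantile normalization. The contrasts share libraries in pairs, so their values are set side by side and are not compared with each other.

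**Figure D4:**
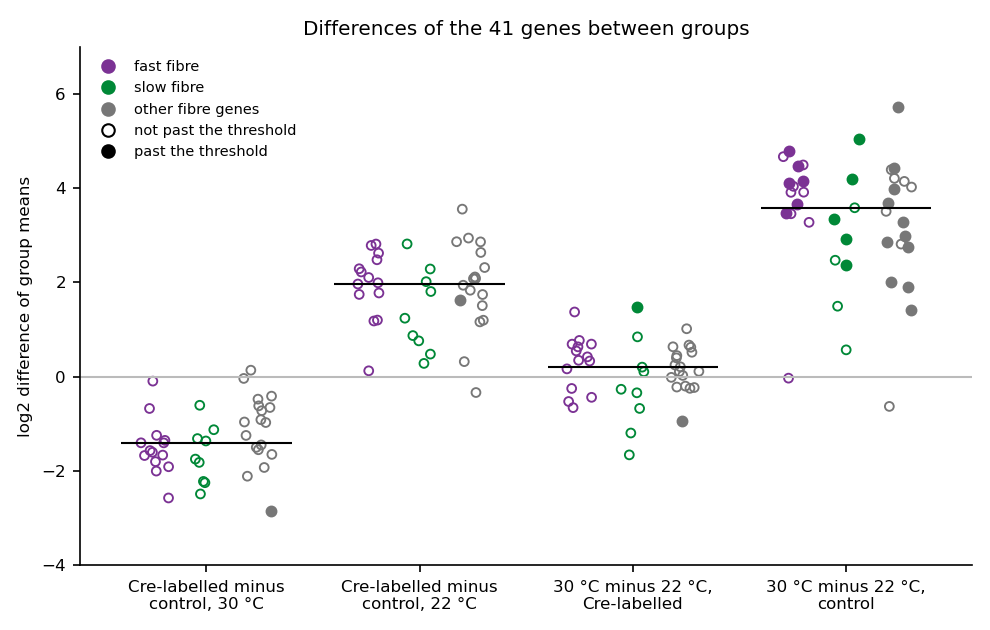
log2 difference of group means for each of the 41 genes (points, by fibre class; filled where past the threshold by limma) in 4 comparisons, with the median of the 41 as a line. The medians are -1.41, 1.97, 0.20 and 3.59 from left to right, and filled points are frequent only in control fat at 30 °C against 22 °C, where 22 of 41 passed.

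With the group means and the muscle score fitted together by limma, 93 of 13135 other genes (0.708%) had a slope past the threshold, 92 upward and 1 downward. Of these 93, 35 were on a list of further skeletal muscle genes, 2 on a list of genes shared by brown fat and muscle, and 56 on no list. The downward gene was Trit1, a tRNA-modifying enzyme, with a slope of -0.15 ± 0.03 (limma adjusted p 0.0363). Of 59 further skeletal muscle genes listed from textbook knowledge, 47 were tested and 35 had a called slope, all upward. The 4 with the lowest p were Apobec2 (1.29 ± 0.07), a muscle member of the APOBEC family, Mylk2 (1.16 ± 0.07), the myosin light chain kinase of skeletal muscle, Hrc (0.84 ± 0.05), a calcium-binding protein of the reticulum, and Myom2 (1.15 ± 0.07), an M-band protein. The median slope of the 47 was 0.54. The list was drawn up with earlier results of these data known.

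The 10 genes whose deviations from group means followed the score most closely over the 16 libraries were Ppp1r3a (Pearson 0.989), Apobec2 (0.987), Ano5 (0.985), Ckmt2 (0.984), Hrc (0.982), Dhrs7c (0.981), Mylk2 (0.980), Ampd1 (0.977), Lmod2 (0.976) and Rpl3l (0.976). Ppp1r3a, the glycogen-targeting subunit of protein phosphatase in muscle, lay between 0 and 86.6 normalized counts, and Ampd1, muscle AMP deaminase, between 0 and 154. These are likenesses of level across libraries that share a normalization.

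No gene on the lists of other cell types had a slope past the limma threshold, against 0.708% of all other genes. A count of 0 in lists of this size is near that share and is not read as a result about these cell types. A slope was called for 0 of 6 tested myogenic regulators and satellite-cell genes, 0 of 3 heart genes, 0 of 13 smooth muscle and mural genes, 0 of 24 brown adipocyte genes, 0 of 16 macrophage genes, 0 of 13 endothelial genes, 0 of 14 fibroblast and progenitor genes, 0 of 11 Schwann and nerve genes and 0 of 3 erythrocyte genes. The unadjusted limma p was under 0.05 for 5 smooth muscle and mural genes, 3 macrophage genes, 1 gene each of the myogenic, brown adipocyte, fibroblast and Schwann lists, and 0 of the heart, endothelial and erythrocyte lists. The share of all genes at that cut was not taken, so these counts are not read. The median slopes of these lists lay between -0.12 (erythrocyte) and 0.07 (myogenic). Of the 18 myogenic genes only 6 were abundant enough to test, and the defining ones were at or near 0: Myod1, Myf5 and Pax7 reached 1.88, 1.76 and 1.28 at most, and Myf6 9.34. Of the 13 heart genes 4 were at 0 in all 16 libraries, Nppa among them, and Myh6 reached 3.51. The embryonic myosin Myh3 reached 15.8 in 1 library, Cre-labelled 30 °C replicate 3.

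Genes that brown fat and muscle both use were set apart, since their RNA has 2 possible sources. Of 29 such genes 2 followed the score: Ckmt2, the mitochondrial creatine kinase of muscle, with a slope of 1.31 ± 0.07 (limma adjusted p 1.1e-09), and Hspb6, a small heat-shock protein, with 0.26 ± 0.04 (limma adjusted p 0.00131). Ckmt2 had 0, 202, 159 and 23.2 normalized counts in Cre-labelled libraries at 30 °C, against 129.5, 79.9, 62.5 and 63.8 in controls, and 247, 0, 8.79 and 130.2 in Cre-labelled libraries at 22 °C, against 0, 0, 25.4 and 11.96 in controls. It was at 0 in the 4 libraries with the lowest muscle score. The remaining 27 had slopes between -0.09 and 0.08, Cox8b (-0.09 ± 0.03) and Cox7a1 (-0.08 ± 0.03), both oxidase subunits of muscle and brown fat, among the lowest.

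**Figure D5:**
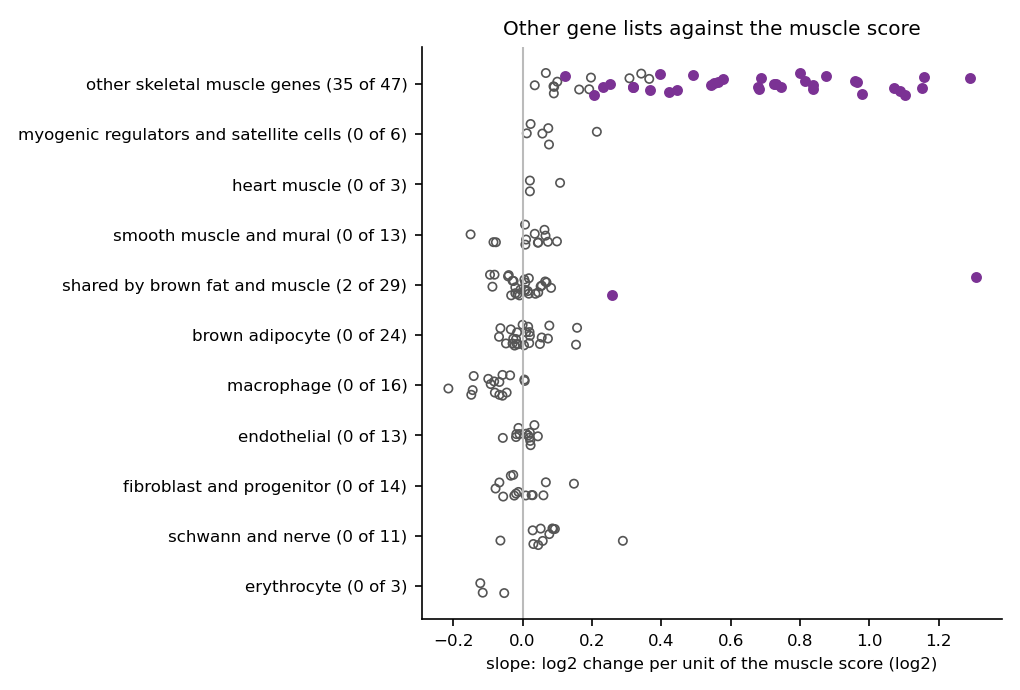
Slope of each tested gene on the muscle score (points; log2 per log2, filled where past the threshold by limma) for 11 gene lists outside the 41, with the number past the threshold and the number tested beside each name. Filled points are confined to the further skeletal muscle genes (35 of 47) and to Ckmt2 and Hspb6 among the genes shared by brown fat and muscle. Over all genes outside the 41 the share past the threshold was 0.708%.

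Adding the score to the fit changed the number of other genes called in each comparison, most in control fat between temperatures. At 30 °C, 1646 of 13135 other genes differed between Cre-labelled and control fat without the score and 1492 with it, and 1390 were called in both fits. At 22 °C the counts were 1343 without and 1271 with the score, with 1088 in both. For 30 °C against 22 °C they were 4312 and 4333 in Cre-labelled fat (4230 in both) and 5977 and 4559 in control fat (4344 in both, 1633 lost and 215 gained). For the difference between the Cre effects they were 58 and 34, with 30 in both. Single libraries moved these counts too: without the score, 1080 genes were called at 30 °C without Cre-labelled 30 °C replicate 1 and 1008 without control 30 °C replicate 4. At 22 °C the count was 834, 2356 and 764 without Cre-labelled 22 °C replicate 1, 2 and 3, and 817 without control 22 °C replicate 3. The 58 became 21 to 38 when 1 of 8 libraries was left out (replicates 1, 3 and 4 of the controls at 30 °C, 2 and 3 of those at 22 °C, Cre-labelled 30 °C replicate 1, and Cre-labelled 22 °C replicates 1 and 4) and 102 without control 22 °C replicate 1. In the control contrast the scores of the groups did not overlap, at 1.30 to 2.15 at 30 °C and -3.00 to 0.06 at 22 °C, so that temperature and muscle transcript cannot be told apart there, and the median SE of a difference was 1.19 times as large with the score in the fit. In the other contrasts that factor was between 1.01 and 1.10.

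Among the 93 genes that follow the score, 40 were called higher and 1 lower at 30 °C in control fat, with a median log2 difference of 2.12. Since they were chosen for their slope on the score, their values with the score in the fit are not read. In Cre-labelled against control fat 1 was higher and 3 lower at 30 °C, and 3 were higher and 0 lower at 22 °C. Among 262 genes at least 4-fold higher at 30 °C in control fat and past the threshold, 20 were members and 25 more followed the score. At least 4-fold changes between Cre-labelled and control fat included 0 members among 59 higher and 1 among 38 lower genes at 30 °C, and 0 among 52 higher and 0 among 24 lower genes at 22 °C.

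Named by the size of their difference, the calls lost in control fat with the score included Nrap, an anchoring protein of muscle (log2 3.11 ± 0.93 without the score). Nrap follows the score, so its value with the score in the fit is not read. The lost calls also included Egr1, an immediate early gene (2.87 ± 0.83 without and 2.52 ± 0.97 with the score). Adnp, a chromatin-associated protein (4.54 ± 1.65 and 4.44 ± 1.97), was the lost call with the largest difference. Its estimate hardly moved while its SE grew, and its slope on the score was 0.03 ± 0.32. It had 613, 12.4, 489 and 508 normalized counts in controls at 30 °C, against 4.98 to 10.7 at 22 °C. Calls gained in control fat were led by Hspa1b, a heat-shock protein (-2.68 ± 1.12 without and -3.73 ± 1.25 with the score), Nckipsd (1.11 ± 0.45 and 1.44 ± 0.51), Bhlhe40 (-1.08 ± 0.46 and -1.61 ± 0.49) and the clock gene Per2 (-0.81 ± 0.35 and -1.20 ± 0.38). Of the 102 calls gained between Cre-labelled and control fat at 30 °C, the 4 with the largest differences were Hspa1a (3.42 ± 1.16 and 3.86 ± 1.13), Slc7a10 (1.47 ± 0.52 and 1.73 ± 0.49), Gadd45g (1.04 ± 0.35 and 1.19 ± 0.34) and Jun (0.99 ± 0.34 and 1.18 ± 0.30). Of the 183 gained at 22 °C, Nrap had the largest (2.53 ± 0.93 without the score), and its value with the score is again not read. Ucp1 was lower in Cre-labelled fat with or without the score, with log2 differences of -1.68 ± 0.25 and -1.70 ± 0.26 at 30 °C and of -0.94 ± 0.25 and -0.90 ± 0.27 at 22 °C, past the threshold in each fit.

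The authors' list of BCL6 peaks in brown fat at 30 °C from control mice holds 3022 peaks, each with its distance to the nearest gene start. By the distances of that list, a peak within 10 kb was assigned to 0 of the 41 muscle genes, against 4.93% of the 24116 genes, and within 50 kb to 2 of 41 (4.88%), against 8.24%. By the same distances the closest were a peak at -11889 bases from the start of Myl2 and a peak at 18836 bases from the start of Mb, with the authors' scores of 4.11 and 4.83. Myoz2 had 2 more distant ones, at -72920 and -87395 bases. For Myl2 and Mb the list measures from other gene starts than the RefSeq starts used for the promoters. The Myl2 peak, at chr5:122088972-122089152, lies within 10 kb of the RefSeq start at 122092724. The Mb peak, at chr15:77003801-77003981, lies farther than 18836 bases from the RefSeq start at 77050668 (minus strand). The counts were not repeated with RefSeq starts.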

How the data were processed

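RNA was sequenced from 16 libraries with a strand-marking kit, per the labels' protocols. Gene values are normalized counts, deposited by the authors as a signal scaled between libraries; the submitters' processing notes name kallisto, DESeq2, Bowtie2, HOMER and mm10, with versions not given in the sources used here. Raw counts could not be recovered, since only 8.67% to 32.73% of values came out as whole multiples of a step (tolerance 0.05), so no count model was used and counting error is not given. The peak score is the authors' own, from their deposited list, based on 1 library. Values were tested as log2(value + 1) for 13176 genes with a mean of at least 10, in limma 3.58.1 (R 4.3.3) with 1 mean per group over all 16 libraries, a trended variance and Benjamini-Hochberg adjustment at 0.05. The muscle score entered a further fit as a covariate. In the table, 26 symbols that had been turned into dates were restored by Entrez ID, and 14 rows have no symbol. Near-identical genes (Myh1, Myh2 and Myh4) may share reads, and sharing of reads among the troponins was not checked.

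The 41 genes and all lists were chosen with earlier results of these data known. Genes named among the calls lost or gained with the score were taken from those with the largest differences; 1 item withheld for evaluation is not reported here. The fit was tested on simulated data. Alternatives were the pseudocount, the filter, quantile normalization, no trend, a replicate block, each comparison alone and each library left out; leaving out the 2 libraries with the fewest genes above 0 was chosen after seeing the data.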

Additional observations from a re-analysis of the deposited data

Results flagged for a closer look

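A library was looked at again where it lay far from the other 3 of its group, by Dixon's ratio of the gap to the range at the 95% level; chance flags about 1 in 20 groups, and 13 of 116 groups examined were flagged. In control fat at 30 °C, replicate 1 stood above the other libraries in the summed level of the 41 genes, at 27501.8 normalized counts against 16321.8 to 16714.9. The same library stood high for Atp2a1 (2963.8 normalized counts), Mylpf (764.3), Neb (535), Des (900.9), Myh7 (283.4), Myl2 (85.48) and Tnnt1 (83.18). In control fat at 22 °C, replicate 3 stood above the others in the summed level, at 8715.0 normalized counts against 3416.1 to 4280.8, and for Neb (121.6) and Mybpc2 (104.7). Xirp1 stood high in control 30 °C replicate 4, at 149.8 normalized counts against 20.3 to 27.2 in the others. Tnni1 stood high in Cre-labelled 22 °C replicate 1, at 76.4 normalized counts against 0.626 to 13.4.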

How the results depend on the processing

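The count of muscle genes called was small or unsteady in each comparison. For Cre-labelled against control fat at 30 °C the count of 1 became 0 with no filter on low values, with no trend and with the replicate block, and 0 to 1 with 1 library left out. At 22 °C the count of 1 became 0 with no filter, quantile normalization, no trend, the replicate block or the comparison alone, and 0 to 3 with 1 library left out. For 30 °C against 22 °C in control fat the count of 22 became 13 with no filter, 8 with quantile normalization, 10 with no trend, 12 with the replicate block, 11 without the 2 libraries with the fewest genes above 0 and 39 in the comparison alone, and 5 to 33 with 1 library left out. In these 6 settings, in that order, 31.7%, 19.5%, 24.4%, 29.3%, 26.8% and 92.7% of the muscle genes were called higher, against 17.5%, 18.1%, 22.5%, 21.7%, 24.3% and 21.2% of all genes, so that the share of muscle genes was close to that of all genes with quantile normalization, no trend and without those 2 libraries. In Cre-labelled fat the count of 2 became 1 with quantile normalization or the comparison alone, and 1 to 3 with 1 library left out. Of 645 alternative values of the 26 single calls, 446 stayed past the threshold, 199 did not, and 0 changed direction.

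Among other genes, the count at 30 °C (1646) was 2797 without the 2 libraries with the fewest genes above 0 and 1008 to 2116 with 1 library left out. At 22 °C (1343) it was 2349 without those 2, 525 in the comparison alone and 764 to 2356 with 1 library left out. For the difference between Cre effects (58) it was 37 with no trend, 24 with the replicate block, 178 without those 2, 34 with the muscle score and 21 to 102 with 1 library left out; the comparison alone was not run for it. The genes following the score (93) numbered 29 at a mean of at least 50, 143 without those 2 libraries and 63 to 107 with 1 library left out. At 50 kb in place of 10 kb, 2 muscle genes had a peak by the distances of the authors' list. The replicate numbers share no stated source: deviations of same-numbered libraries correlated at a median of -0.0571 over 24 pairs, and 4 of 16 libraries correlated best with their own number. The cause of these changes was not tested. Without counts, values near 0 carry an unknown depth.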
